A study of Mus musculus with 12 samples.

Results

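The effect of a miR-335-5p mimic that was shared by day 3 and day 6 of adipogenic differentiation was examined in 3T3-L1 cells. This mouse fibroblast line accumulates lipid and takes on fat cell features after hormonal induction. All 12 RNA sequencing libraries of the series were used, as 6 pairs of the same day and the same replicate number, and the effect is the average within-pair difference, miR-335-5p mimic minus NT mimic. The fibroblasts were transfected with Lipofectamine 2000 for 48 h, either with 20 nM miR-335-5p mimic or with a scrambled, non-targeting mimic (NT mimic), whose concentration is not stated. Insulin, 3-isobutyl-1-methylxanthine, rosiglitazone and dexamethasone were then given until day 3, followed by insulin alone and at last by medium without insulin. Both mimics therefore share the transfection and the induction, and each has 3 libraries from day 3, labelled preadipocyte, and 3 from day 6, labelled adipocyte. All cells come from 1 established line, and the labels do not say whether the replicates were separate cultures, so p-values measure the spread between these pairs, which may be technical. The labels also do not say whether a number marks the same culture on both days, so the 6 pairs may not be independent.

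A microRNA is a short RNA that guides Argonaute proteins to messenger RNAs, mostly by pairing of its seed (bases 2 to 8) with a site in the 3′ UTR, after which the messenger RNA is destabilised or translated less. A mimic is a synthetic copy of the mature microRNA that is loaded in the same way. In mammals miR-335 lies within the Mest gene. The comparison addressed which transcripts differ when miR-335-5p is supplied before differentiation starts.

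The mature mouse sequence is shown because its seed defines the sites that were searched. It was taken from RefSeq (GRCm38.p6, chr6:30741314-30741336, plus strand) and is identical to the sequence in the study's supplement. Capitals mark the seed.
mmu-miR-335-5p: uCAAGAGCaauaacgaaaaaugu

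Sites were searched on the transcript strand, in GENCODE vM21, using 1 UTR a gene (its longest). They were the 8mer GCTCTTGA, the 7mer-m8 GCTCTTG and the 7mer-A1 CTCTTGA, both contained in the 8mer, and the 6mer CTCTTG, contained in all of them. Each gene was counted once, under its longest match. Among the 11557 tested genes with a UTR, 3.50% held an 8mer, 10.9% a 7mer-m8, 8.19% a 7mer-A1 and 18.2% no more than a 6mer. The sites below belong to the 4 genes with a site of 7 bases or more among the 20 genes with the lowest p, followed by 2 of the study's candidate targets. Capitals mark the match, and each line is a stretch of the 3′ UTR.
Tcn2, 8mer: aggaacaggctGCTCTTGActtcctctaca
Angpt4, 7mer-m8: cgagccccgtgGCTCTTGgacttcaatga
Ccn5, 7mer-m8: cccctctccatGCTCTTGgctgcagttaa
Acvrl1, 7mer-A1: caggccccgacCTCTTGAgttcctccagt
Icmt, 8mer: tgagaggtgtaGCTCTTGAttaatcctgga
Vat1, 7mer-m8: gctctgagctcGCTCTTGcccttcgctca
The match began at base 231 of the 456 bases of the Tcn2 UTR, at base 490 of 683 in Angpt4, at base 93 of 709 in Ccn5 and at base 1375 of 1859 in Acvrl1. A match is a description of the letters and not evidence of binding.

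Total counts per library were 17690653 to 18936781, and 12729 to 13644 genes had at least 1 count in a library. Levels below, except the summed marker levels, are CPM, the counts of a gene per 1e+06 counts of the library after TMM scaling. They are listed for day 3 numbers 1, 2 and 3 and then day 6 numbers 1, 2 and 3. They are not divided by gene length, so they compare libraries and not genes. Fitted differences are log2 values with their SE from an edgeR quasi-likelihood fit with the pair as block, and a gene was called at a Benjamini-Hochberg adjusted p below 0.01 over all 11703 genes tested.

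The mimic effect over the 6 pairs was small. The median fitted difference of all genes was -0.0039 on the log2 scale, and the middle 50% of genes lay between -0.05 and 0.04. A single gene was called, which is 0.00854% of the genes tested, and it was lower with the miR-335-5p mimic. At the looser threshold of 0.05 there were 18 genes (0.154%), 17 of them lower and 1 higher. At an unadjusted p below 0.05 there were 1144 genes (9.78%), of which 675 were lower (5.77%) and 469 higher (4.01%). The sign was the same in all 6 pairs for 636 genes (5.43%), with 397 lower (3.39%) and 239 higher (2.04%). Whether the effect differed between the days was tested as an interaction, and 0 genes passed 0.01 in edgeR, 1 gene passed 0.05 and 361 genes (3.08%) had an unadjusted p below 0.05.

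The called gene was Cyp2f2, which encodes a cytochrome P450 that oxidises small aromatic compounds and is best known from mouse airway and liver. Cyp2f2 had 5.65, 23.6, 25.7, 17.3, 33.4 and 31.9 CPM with the miR-335-5p mimic, against 12.4, 50.5, 37.1, 25.9, 52.2 and 43.5 CPM with the NT mimic. The library with the mimic was the lower one in all 6 pairs, while the ranges of the mimics overlapped on both days because the level also differed between replicate numbers. Cyp2f2 fell by 38.4% (log2 -0.70, SE 0.081, 95% interval -0.87 to -0.52, adjusted p = 0.00841). The within-pair differences averaged -0.74 ± 0.30 (SD, n = 6 pairs). They were -1.12, -1.09 and -0.53 in the day 3 pairs and -0.58, -0.64 and -0.44 in the day 6 pairs. The interaction with day was 0.32 (edgeR, unadjusted p = 0.030), which was not significant over all genes (adjusted p = 1.00). Its 3′ UTR held none of the searched letters. The size of the difference ranged from -0.82 to -0.60 when 1 pair or 1 replicate number was left out, and the call was lost without day 3 number 3 (adjusted p = 0.0242), day 6 number 1 (0.0234), day 6 number 2 (0.0211) or both pairs numbered 1 (0.0266). It was also lost with RLE factors (0.0120), with limma-trend (0.0173) and without the replicate block (0.9999), whereas DESeq2 with the same block gave 5.70e-12.

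**Figure D1:**
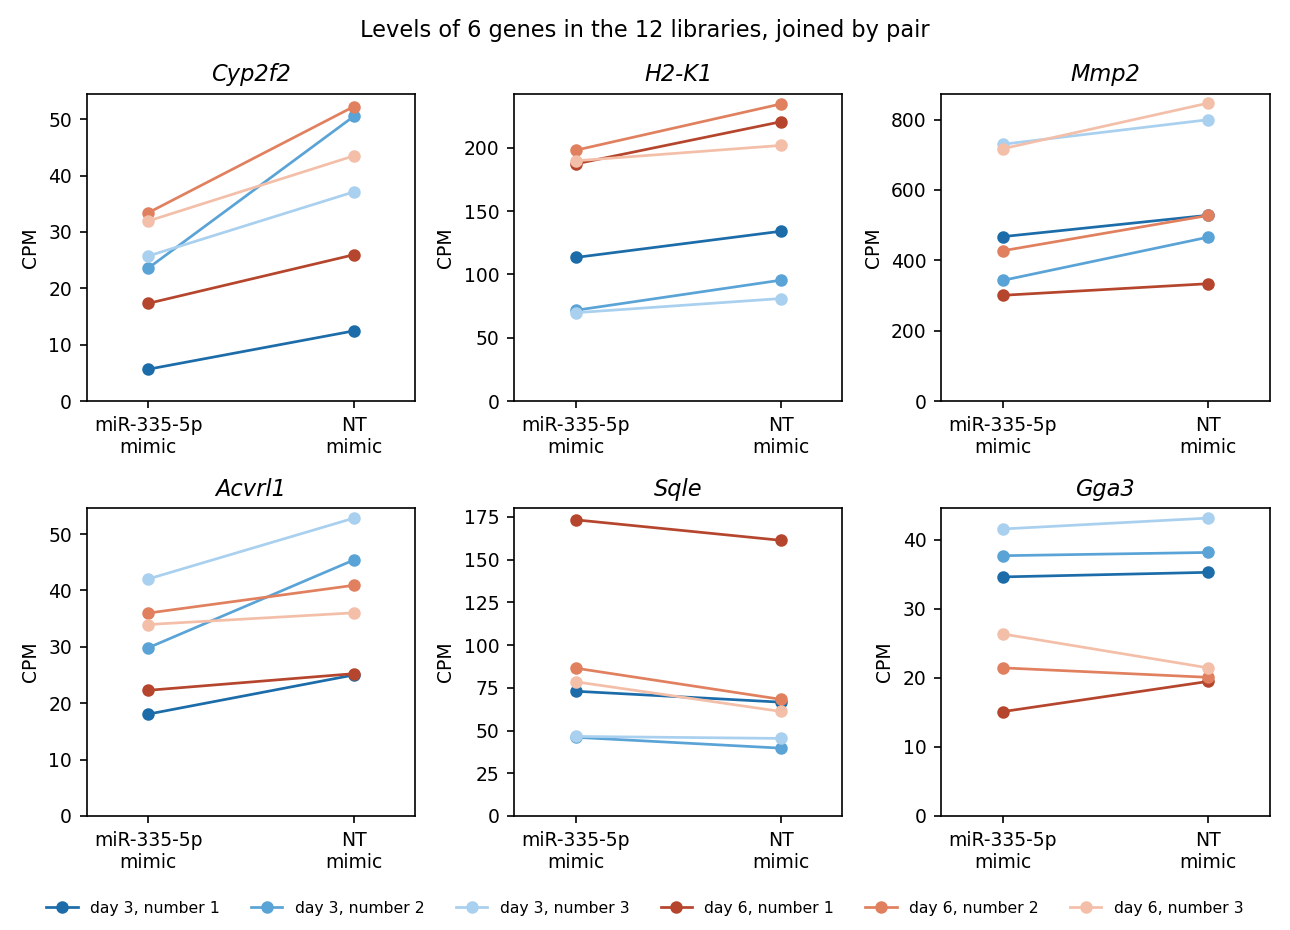
CPM (y axis, from 0) of 6 genes in the 12 libraries, with the miR-335-5p mimic on the left and the NT mimic on the right of each panel and a line joining each of the 6 pairs. Cyp2f2, H2-K1, Mmp2 and Acvrl1 were lower with the miR-335-5p mimic in 6 of 6 pairs, Sqle was higher in 6 of 6 pairs (adjusted p = 0.0757) and Gga3 was lower in 4 of 6.

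Of the other 19 genes with the lowest p, none passed 0.01 in edgeR, and 18 were lower with the miR-335-5p mimic in 6 of 6 pairs. They are given as values. Among them were genes of the extracellular matrix. Mmp2, which encodes a gelatinase that cleaves collagen IV and denatured collagen, had 467, 343, 730, 300, 427 and 717 CPM with the miR-335-5p mimic, against 528, 466, 799, 333, 527 and 847 CPM with the NT mimic. Its largest within-pair log2 difference was in day 3 number 2, and its fitted difference was -0.24 (SE 0.039, adjusted p = 0.0110). Col16a1, a collagen of the fibril-associated family, was at 26.0, 19.5, 27.8, 72.8, 76.0 and 96.1 CPM, against 29.3, 24.4, 34.6, 83.3, 93.1 and 115 CPM (log2 -0.26, SE 0.040, adjusted p = 0.0110). Its 6 within-pair differences were among the most even of the 20 genes, at -0.26 ± 0.06 (SD, n = 6 pairs). DESeq2 with the pair block gave Col16a1 an adjusted p of 0.00196. Adamts2, the protease that removes the amino-terminal propeptide of procollagen, stood at log2 -0.29 (SE 0.053, adjusted p = 0.0249). Thbs1, which encodes the matricellular protein thrombospondin 1, stood at -0.32 (SE 0.065, adjusted p = 0.0502), and day 3 number 1 differed most, at -0.82 against -0.38 to -0.17 in the other 5 pairs.

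H2-K1 and H2-D1, which encode the classical MHC class I heavy chains that present peptides at the cell surface, were lower by like amounts. H2-K1 had 113, 71.7, 69.8, 187, 198 and 190 CPM with the miR-335-5p mimic, against 134, 95.5, 81.0, 221, 235 and 202 CPM with the NT mimic (log2 -0.24, SE 0.038, adjusted p = 0.0110). H2-D1 had 255, 157, 162, 320, 295 and 309 CPM, against 311, 204, 167, 374, 371 and 350 CPM (log2 -0.24, SE 0.039, adjusted p = 0.0110). At day 6 the 3 libraries of each mimic did not overlap for either gene, while at day 3 they did. The 2 genes are close in sequence and the sources used here do not state how shared reads were divided, so their values are not independent. DESeq2 with the pair block gave an adjusted p of 3.55e-04 for H2-K1 and 1.56e-04 for H2-D1.

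Aldh1a1, which oxidises retinaldehyde to retinoic acid, was low in these cells. It had 4.47, 4.98, 6.98, 1.97, 2.52 and 3.32 CPM with the miR-335-5p mimic, against 9.15, 9.16, 9.25, 4.12, 2.83 and 4.27 CPM with the NT mimic. The mimics did not overlap at day 3 and overlapped at day 6, and the fitted difference was -0.67 (SE 0.116, adjusted p = 0.0220). Plac8, which encodes a small cysteine-rich protein, was also low, at 1.20 to 6.17 CPM with the miR-335-5p mimic, against 1.76 to 11.5 CPM with the NT mimic (log2 -0.61, SE 0.120, adjusted p = 0.0403). For Aldh1a1, Plac8, Rtn4rl2 and Ccn5 DESeq2 gave no adjusted p, since its own filter on low counts removed them. In all, 4311 of the 11703 genes had no adjusted p in DESeq2. Its adjusted values therefore cover fewer genes than those of edgeR.

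The 4 genes with a site of 7 bases or more were lower in 6 of 6 pairs and none was called by edgeR. Angpt4, an angiopoietin ligand of the Tie2 receptor, had 23.3, 12.2, 22.7, 49.8, 56.5 and 58.1 CPM with the miR-335-5p mimic, against 35.9, 17.7, 31.1, 61.9, 73.7 and 59.0 CPM with the NT mimic. The last pair was nearly level, and the fitted difference was -0.36 (SE 0.062, adjusted p = 0.0269). DESeq2 with the pair block gave Angpt4 an adjusted p of 7.44e-04, which is past the threshold. Acvrl1, which encodes the type I receptor ALK1 of the TGF-beta family, had 18.1, 29.8, 42.0, 22.3, 36 and 34.0 CPM, against 25, 45.4, 52.8, 25.2, 40.9 and 36 CPM (log2 -0.30, SE 0.059, adjusted p = 0.0403). For Angpt4 and Acvrl1 the log2 gap was wider in each day 3 pair than in any day 6 pair. Their interactions with day were 0.30 and 0.31, which were not significant over all genes. Ccn5, a matricellular protein of the CCN family, was at 1.08 to 13.1 CPM with the miR-335-5p mimic, against 1.94 to 19.1 CPM with the NT mimic (log2 -0.52, SE 0.104, adjusted p = 0.0421). Tcn2, the plasma carrier of vitamin B12, was at 39.7 to 87.2 CPM and 40.4 to 106 CPM (log2 -0.21, SE 0.043, adjusted p = 0.0502).

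Other genes of the 20 had other roles. Map3k3, which encodes the MAP kinase kinase kinase MEKK3, was the 1 gene that was higher with the miR-335-5p mimic. It had 143, 138, 175, 96.7, 104 and 97.1 CPM with it, against 113, 114, 147, 85.6, 98.6 and 92.1 CPM with the NT mimic (log2 0.20, SE 0.040, adjusted p = 0.0403). The gap was wider in each day 3 pair than in any day 6 pair, with an interaction of -0.18 that was not significant over all genes (adjusted p = 1.00). C1s1, a serine protease of the classical complement pathway, stood at log2 -0.26 (adjusted p = 0.0249), and Mylk, the myosin light chain kinase, at -0.22 (0.0349). For both Map3k3 and Mylk, DESeq2 with the pair block gave an adjusted p of 0.00975. Bmf, a pro-apoptotic member of the Bcl-2 family, stood at -0.19, Rab3il1, an exchange factor for Rab proteins, at -0.22 and Rtn4rl2, a Nogo receptor homologue, at -0.37, each with an adjusted p of 0.0403.

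**Figure D2:**
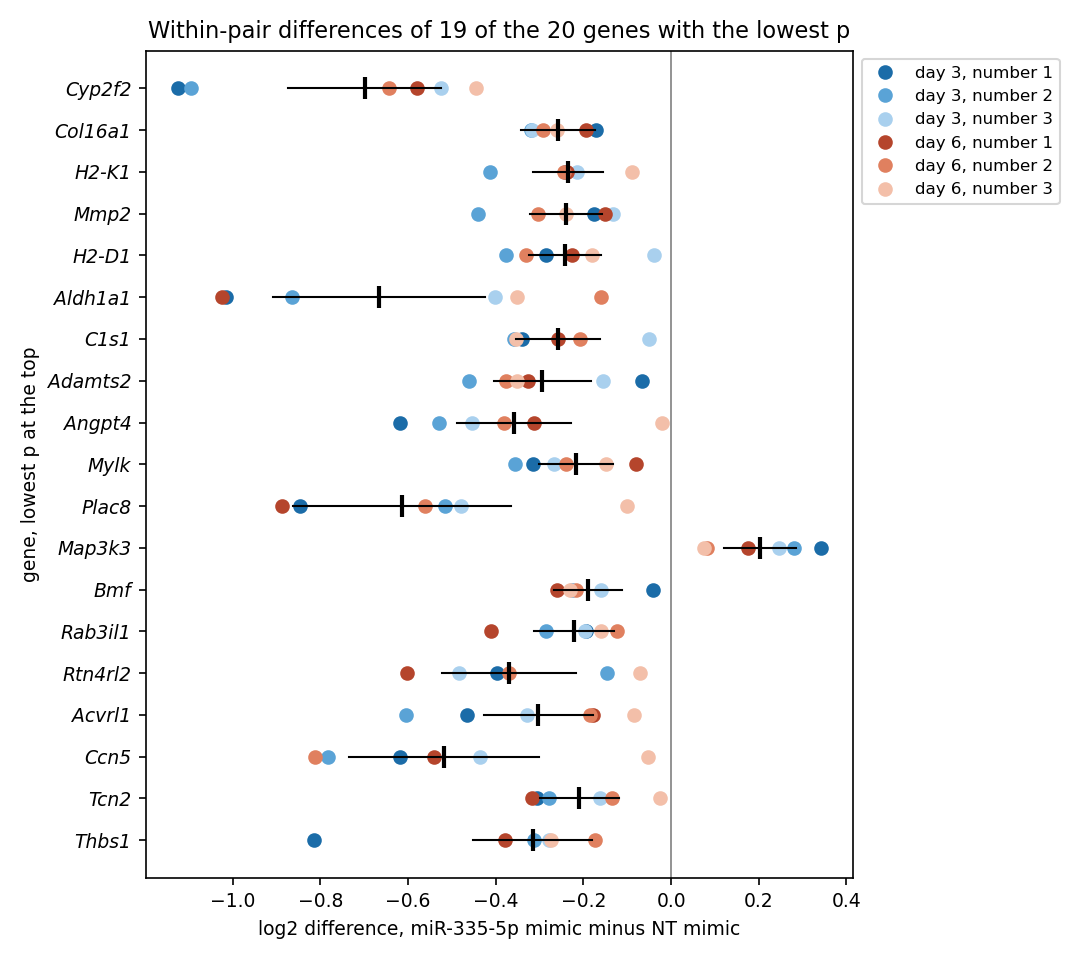
Log2 CPM difference, miR-335-5p mimic minus NT mimic (x axis), in each of the 6 pairs (points, blue for day 3 and red for day 6) for 19 of the 20 genes with the lowest p, with the fitted difference (black tick) and its 95% interval (line). Cyp2f2, at -0.70, passed the threshold of 0.01, 18 genes lie left of 0 in all 6 pairs, and Map3k3, at 0.20, lies right of it.

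A count-free check of single genes flips the signs of the 6 within-pair differences in all 64 ways. Its smallest possible two-sided p is 0.03125, and 632 of the 11703 genes reached it, the 20 genes above among them. For those 20 this value follows from their single sign in all 6 pairs, so it adds no support. After adjustment over all genes the smallest value was 0.579, so 6 pairs cannot call a gene by this exact permutation test.

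The medians of genes with a seed site lay close to that of other genes over the 6 pairs, and no test was made of them. The median difference was -0.0062 for 404 genes with an 8mer, -0.0012 for 1254 genes with a 7mer-m8, 0.0074 for 947 genes with a 7mer-A1, 0.0019 for 2100 genes with a 6mer alone and -0.0075 for 6852 genes without a match. Of the 2605 genes with a site of 7 bases or more, 49.98% had a negative difference, against 54.44% of genes without a match and 52.38% of all genes. Their median minus that of genes without a match was -0.0033, 0.035, 9.56e-04, -0.014, 0.024 and 0.0094 in the 6 pairs, so it was below 0 in 2 of them. No gene with a site was called by edgeR (DESeq2 with the pair block passed Angpt4, as given above). In all 6 pairs, 24 of the 404 genes with an 8mer were lower and 6 higher. The counts were 39 lower and 30 higher of 1254 with a 7mer-m8, 31 lower and 34 higher of 947 with a 7mer-A1 and 249 lower and 123 higher of 6852 without a match, against 3.39% lower and 2.04% higher over all genes. UTR length differed between the classes, with a median of 2752 bases for genes with an 8mer and 736 for genes without a match, and its part in these values was not tested. Among the 19 of the 20 genes with the lowest p that have an annotated UTR, 4 held a site of 7 bases or more (21.1%), near the 22.5% of all genes with a UTR.

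From the longer set of putative targets that the study took from adipose tissue, those named in its text were followed here, with Hspa13 and Ppil2, as 13 genes. They are a subset, and the other putative targets were not analysed here as a list. None was called. There were 7 with a positive and 6 with a negative difference and a median of 0.00052. Gna12, which encodes the alpha subunit of the G protein G12, had 39.9, 29.1, 34.4, 60.4, 54.9 and 55.3 CPM with the miR-335-5p mimic, against 34.3, 33.7, 35.7, 56.4, 54.7 and 55.7 CPM with the NT mimic. It was lower in 3 of 6 pairs (log2 0.01, 95% interval -0.09 to 0.11, adjusted p = 0.951). Gga3, an adaptor for sorting between Golgi and endosomes, had 34.6, 37.7, 41.6, 15.1, 21.5 and 26.4 CPM, against 35.3, 38.2, 43.1, 19.5, 20.1 and 21.5 CPM (log2 -0.01, 95% interval -0.14 to 0.12, adjusted p = 0.984). The 3 day 3 pairs were nearly level and the day 6 pairs went both ways. These intervals hold differences of up to about 0.1 on the log2 scale in either direction, so smaller effects were not detectable here. By qPCR, the study reported both genes as reduced in fibroblasts given the mimic. Its reporter assay in HeLa cells was lower for Gga3 and unchanged for Gna12. Those results come from another stage or cell and another method than these day 3 and day 6 libraries. The longest annotated UTR of Gna12 held none of the searched letters and that of Gga3 held a 6mer.

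Of the other candidates, Vat1, a membrane protein of the vesicle amine transport family with a 7mer-m8, averaged 229 CPM with the miR-335-5p mimic, against 242 CPM with the NT mimic and was lower in 5 of 6 pairs (log2 -0.10, SE 0.036, adjusted p = 0.367). Icmt, which methylates the carboxyl terminus of prenylated proteins and holds an 8mer, averaged 48.4 and 50.3 CPM and was lower in 6 of 6 pairs by a small amount (log2 -0.06, SE 0.040, adjusted p = 0.672). Far1 (fatty acyl-CoA reductase) and Igf2bp2 (an RNA-binding protein), which both hold a 7mer-m8, stood at -0.03 and -0.02. Atp2b4 (a plasma membrane calcium pump), Dhcr7 (the last step of cholesterol synthesis), Sod3 (extracellular superoxide dismutase), Utrn (utrophin) and Hspa13 (an Hsp70 family member) stood between 0.03 and 0.06, and Sgpp1 and Ppil2 at -0.01 and 0.00052. Mest, the host gene of miR-335, averaged 4.79 CPM with the miR-335-5p mimic, against 4.37 CPM with the NT mimic (log2 0.10, SE 0.118, adjusted p = 0.821). These averages rest mostly on day 6 number 1 (19.2 against 16.5 CPM), and the lowest library was at 0.12 CPM. The within-pair differences of Mest ran from -0.21 to 0.70. A mimic is supplied to the cell and is not transcribed, so Mest does not check the transfection, and the level of miR-335-5p itself was not analysed here.

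Values of the cholesterol synthesis list lay mostly above 0. Its enzymes make cholesterol from acetyl-CoA and are controlled together by the transcription factor SREBP2, encoded by Srebf2. None of the 24 tested members was called, but 22 had a positive and 2 a negative difference, with a median of 0.10 against -0.0039 over all genes. At an unadjusted p below 0.05, 14 members were higher (background 4.01%) and 0 lower, and 9 were higher in all 6 pairs (background 2.04%). The median of the list was above 0 in each of the 6 pairs, from 0.035 in day 3 number 3 to 0.21 in day 6 number 3. Sqle, squalene epoxidase, had 73.0, 46.0, 46.5, 173, 86.5 and 78.5 CPM with the miR-335-5p mimic, against 66.6, 39.7, 45.4, 161, 68.2 and 61.2 CPM with the NT mimic (log2 0.20, SE 0.045, adjusted p = 0.0757). Fdft1, squalene synthase, had 78.3, 53.8, 59.9, 157, 85.3 and 79.2 CPM, against 75.6, 45.0, 57.0, 140, 72.2 and 56.5 CPM (log2 0.21, SE 0.048, adjusted p = 0.0848). Both enzymes were higher in 6 of 6 pairs, as were Hmgcs1 (log2 0.13, adjusted p = 0.150) and Fdps (0.14, 0.157). Insig1, which retains the SREBP complex in the endoplasmic reticulum and is itself an SREBP target, stood at 0.17 (SE 0.040, adjusted p = 0.0848). Ebp, a sterol isomerase, was 1 of the 2 negative members, at -0.07.

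The lists of fat cell function lay nearer to all genes. Adipocyte identity had 17 positive and 8 negative differences among 25 tested members (median 0.03), lipogenesis and triglyceride synthesis 17 and 8 of 25 (0.02), lipolysis and fatty acid oxidation 13 and 7 of 20 (0.03), glycolysis 12 and 6 of 18 (0.01) and insulin signalling 15 and 8 of 23 (0.02). None of their members was called. Slc2a4, the insulin-responsive glucose transporter GLUT4, averaged 59.9 CPM with the miR-335-5p mimic, against 54.2 CPM with the NT mimic and was higher in 6 of 6 pairs (log2 0.14, SE 0.045, adjusted p = 0.244). Hadhb, a subunit of the mitochondrial trifunctional protein of fatty acid oxidation, averaged 240 and 212 CPM (log2 0.18, adjusted p = 0.0520). Pck1, which makes phosphoenolpyruvate for glyceride-glycerol, showed the widest value, log2 1.32, on averages of 1.25 and 0.523 CPM (adjusted p = 0.545).

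Collagens and matrix glycoproteins had 28 negative and 9 positive differences of 37 and a median of -0.05. At an unadjusted p below 0.05, 11 were lower and 3 higher, and 6 were lower and 3 higher in all 6 pairs, against 3.39% and 2.04% of all genes. Beside Mmp2 and Thbs1, these were led by Thbs2, a second thrombospondin (log2 -0.20, adjusted p = 0.0538), and Lox, which crosslinks collagen and elastin (-0.18, 0.0896). Fn1, fibronectin, stood at -0.09 and Lamc1, a laminin chain, at 0.09. The members ranged from -0.61 to 0.55, and the highest was Prg4, which is described further below. The fibrillar collagens Col1a1, Col1a2 and Col3a1 averaged -0.03, 0.00 and 0.00 over the 6 pairs, but the pairs differed in sign. Col1a1 differed by 0.20, 0.09 and 0.12 in the day 3 pairs and by -0.07, -0.24 and -0.24 in the day 6 pairs, with an interaction of -0.32 that was not significant over all genes (adjusted p = 1.00), so its average describes neither day. The list median was below 0 in 4 of 6 pairs, all 3 of day 6 among them, and ranged from -0.06 to -0.0095 when 1 pair or number was left out, nearest 0 without day 6 number 3.

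Preadipocyte and fibroblast genes had 18 negative and 2 positive differences of 20 (median -0.08), with Thy1, a fibroblast surface protein, at -0.19 and Dlk1, a preadipocyte surface protein, at -0.18 (adjusted p = 0.277 and 0.377). Smooth muscle contractile genes had 8 negative of 10 (median -0.06), Mylk among them. The summed level of the 7 preadipocyte and fibroblast markers was 2674 to 3572 CPM with the miR-335-5p mimic, against 2661 to 3460 CPM with the NT mimic at day 3, and 8596 to 12770 and 8922 to 14140 CPM at day 6. That of the 8 adipocyte markers was 8330 to 10680 and 8052 to 10730 CPM at day 3, and 10190 to 14850 and 10440 to 13540 CPM at day 6. Both lists were detected in full and none of their genes was called. In bulk RNA, fewer cells of a kind and less RNA per cell cannot be told apart, and the part of cell makeup in the matrix and fibroblast values was not tested. Markers of other cell types were low, with 2 of 7 macrophage markers tested and Itgam at 0 in every library, 1 of 5 endothelial markers tested and Kdr at 0, and 0 of 4 skeletal muscle markers tested. Smooth muscle and epithelial markers were detected more often. Of the 4 smooth muscle markers 3 were tested, and their sum at day 6 was 22.2 to 37.7 CPM with the miR-335-5p mimic, against 23.4 to 34.5 CPM with the NT mimic. Of 3 epithelial markers 2 were tested, and their sum at day 6 was 21.1 to 43.1 CPM, against 20.6 to 45.3 CPM. The wider lists for other cells had 2 or 3 tested members each and 0 calls, with medians of -0.11 for macrophage, 0.10 for endothelial, 0.06 for epithelial, -0.04 for skeletal muscle and -0.04 for brown and beige fat genes.

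Drug-metabolising enzymes, the list of Cyp2f2 and Aldh1a1, had 23 negative and 9 positive differences of 32 tested, with a median of -0.08. At an unadjusted p below 0.05, 8 were lower and 0 higher. The shares over all genes are 5.77% and 4.01%. Cyp2j6, another cytochrome P450, averaged 8.68 CPM with the miR-335-5p mimic, against 10.2 CPM with the NT mimic (log2 -0.23, adjusted p = 0.303). Ephx2, soluble epoxide hydrolase, stood at -0.13 and Aldh1a7, a close relative of Aldh1a1, at -0.19, with neither called. Nqo1, a quinone reductase, had the highest value of the list, 0.13.

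Interferon response and nucleic acid sensing genes had 17 negative and 5 positive differences of 22 and a median of -0.13. At an unadjusted p below 0.05, 9 were lower and 0 higher, against 5.77% and 4.01% of all genes. Of the 22, 1 was lower in all 6 pairs (3.39% of all genes), Usp18, which removes ISG15 from proteins. Usp18 averaged 1.01 CPM with the miR-335-5p mimic, against 1.60 CPM with the NT mimic (log2 -0.66, SE 0.174, adjusted p = 0.144). Bst2, the antiviral membrane protein tetherin, averaged 26.3 and 31.5 CPM (log2 -0.26, adjusted p = 0.236). The list median was negative in 5 pairs and positive, at 0.12, in day 3 number 3. It was -0.042 among members with a mean of at least 5 CPM and -0.29 without both pairs numbered 3.

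A list of MHC class I antigen presentation was drawn up after H2-K1 and H2-D1 had been seen, so it is a description alone. Of 21 tested members 16 had a negative and 5 a positive difference (median -0.13), 11 were lower at an unadjusted p below 0.05 (5.77% of all genes) and 5 were lower in all 6 pairs (3.39% of all genes). Tap1, a subunit of the peptide transporter into the endoplasmic reticulum, averaged 40.3 CPM with the miR-335-5p mimic, against 45.8 CPM with the NT mimic (log2 -0.18, adjusted p = 0.138). Nlrc5, the transactivator of class I genes, stood at -0.35 (adjusted p = 0.147) and the immunoproteasome subunits Psmb8, which is also in the interferon list, and Psmb9 at -0.31 and -0.52. B2m, the light chain of all class I molecules, stood at -0.06, and the general chaperones Calr and Canx at 0.07 and 0.05. A complement list chosen in the same way had 11 negative of 13 (median -0.18), with C1rb at -0.24 and C1s2 at -0.29 beside C1s1, while the abundant C3 and Cfd stood at -0.03 and 0.00.

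**Figure D3:**
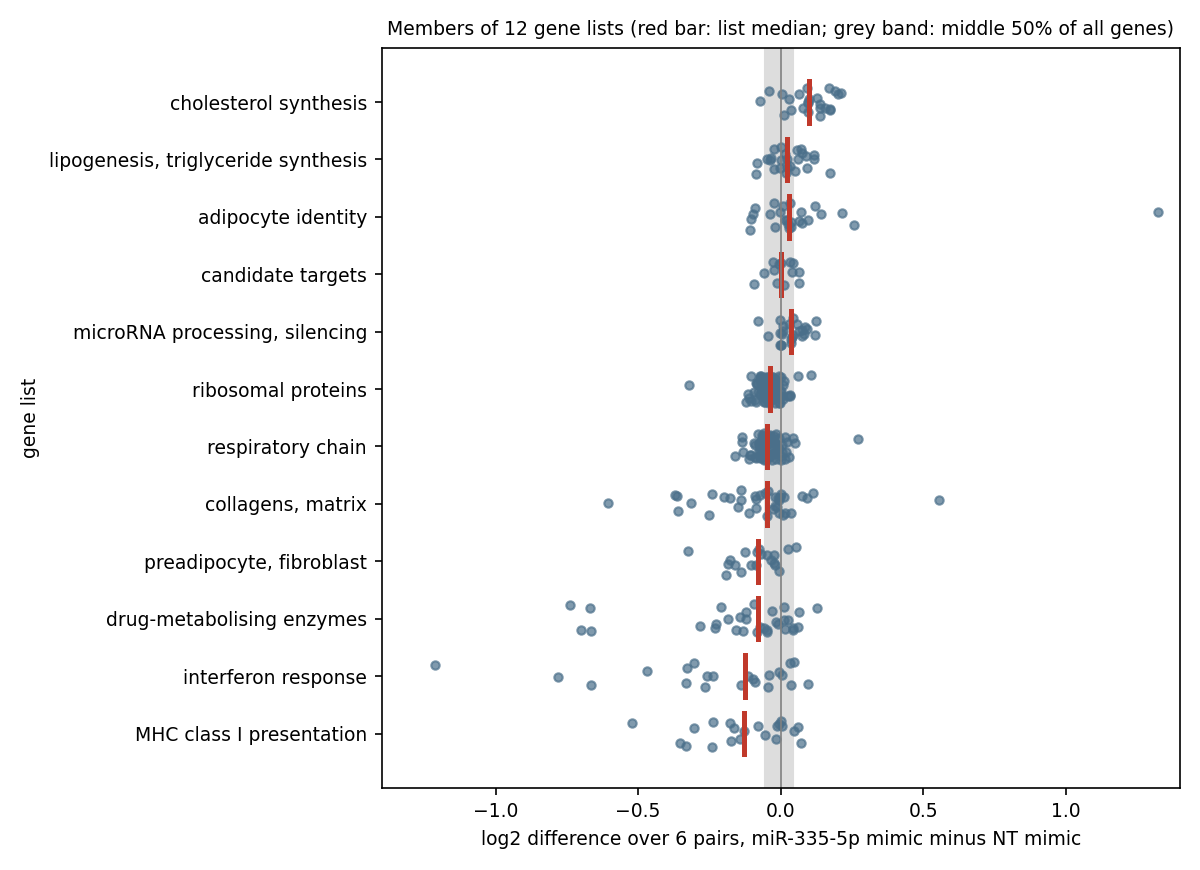
Fitted log2 difference over 6 pairs, miR-335-5p mimic minus NT mimic (x axis), of the tested members (points) of 12 gene lists, with the list median (red bar) and the middle 50% of all genes tested (grey band, -0.05 to 0.04). Cholesterol synthesis lies mostly right of the band (median 0.10), interferon response and MHC class I presentation mostly left of it (both -0.13), and the 13 candidate targets are centred on 0.

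Lists of general functions had medians between -0.05 and 0.04. Of the ribosomal protein genes, 72 of 82 had a negative difference, with a median of -0.04 and 0 members lower in all 6 pairs (3.39% of all genes). Near-identical copies make single members uncertain. Nuclear-encoded respiratory chain genes had 62 negative of 74 (median -0.05). Of these 74, 1 was lower in all 6 pairs, against 3.39% of all genes. It was Cox4i1, a subunit of cytochrome c oxidase (log2 -0.13, adjusted p = 0.258). The medians of both lists changed sign between pairs, from -0.19 to 0.07 for ribosomal proteins and from -0.21 to 0.09 for the respiratory chain, whose median over pairs reached 0.014 without both pairs numbered 2. MicroRNA processing and silencing genes had 20 positive of 25 (median 0.04), with Tnrc6b, a GW182 scaffold protein, at 0.12 (adjusted p = 0.276). TGF-beta and BMP receptors and effectors had 14 negative of 27 (median 0.00), with Acvrl1 and Fst, the activin antagonist follistatin (log2 -0.21, adjusted p = 0.144), both lower in 6 of 6 pairs. Angiopoietins, the VEGF family and their receptors had 7 negative of 11 (median -0.05), NRF2 and stress genes 16 positive of 25 (0.04) and proliferation genes 17 positive of 30 (0.01).

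**Figure D4:**
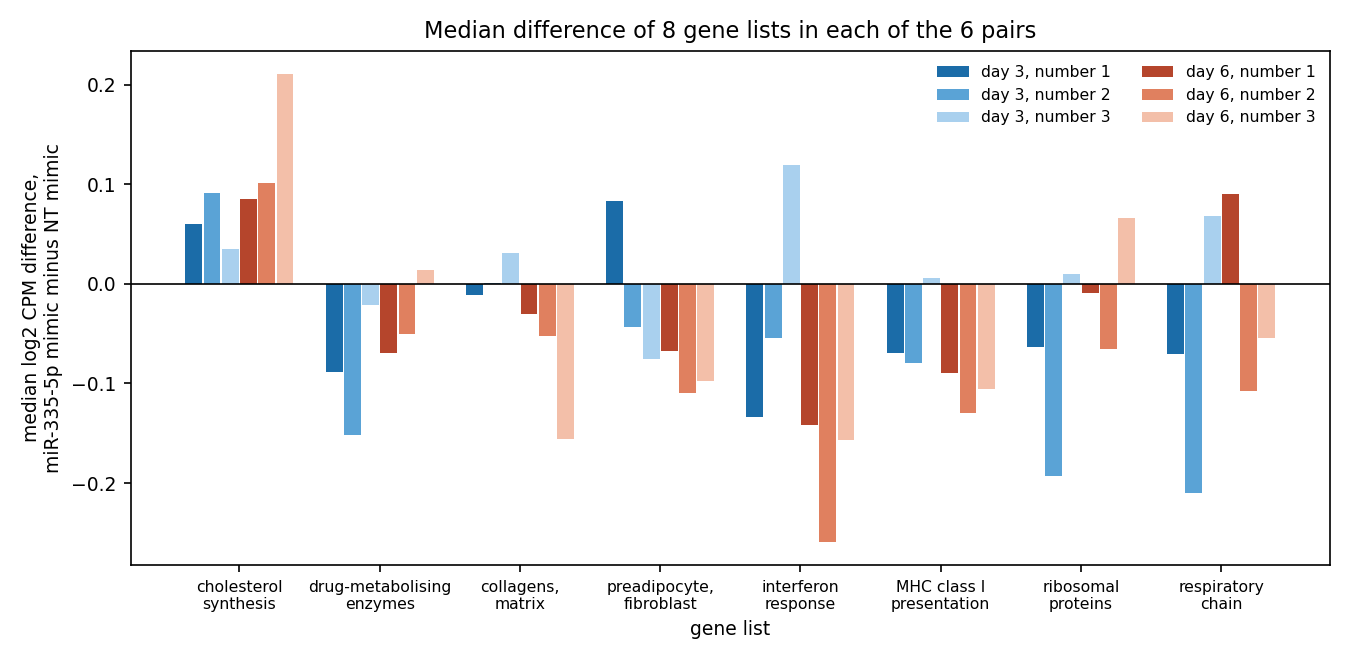
Median log2 CPM difference, miR-335-5p mimic minus NT mimic (y axis), of 8 gene lists in each of the 6 pairs (bars, blue for day 3 and red for day 6). The bars of cholesterol synthesis are above 0 in 6 of 6 pairs, from 0.035 to 0.21, whereas ribosomal proteins and the respiratory chain change sign between pairs.

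Among the genes that the study named from these same samples, 9 for day 3 and 12 for day 6 were followed here, beside Aldh1a7, which is described with the drug-metabolising enzymes. Since they were chosen on these libraries, their values over both days are no independent evidence. None was called by edgeR, while DESeq2 with the pair block gave Mmp2 an adjusted p of 8.02e-05. Enpp2, which encodes the lysophospholipase autotaxin, had 352, 259, 433, 461, 356 and 505 CPM with the miR-335-5p mimic, against 349, 196, 337, 402, 196 and 386 CPM with the NT mimic (log2 0.37, SE 0.106, adjusted p = 0.354). Prg4, lubricin, had 117, 152, 54.8, 20.7, 7.87 and 5.08 CPM, against 81.7, 61.2, 48.5, 19.7, 5.27 and 4.48 CPM (log2 0.55, SE 0.204, adjusted p = 0.482). Both were higher in 6 of 6 pairs, but by very unequal amounts, with number 2 differing most at day 3 for Prg4 and at day 6 for Enpp2. The desaturases Scd1 and Scd2 stood at 0.09 and 0.12, each higher in 5 of 6 pairs. Fth1, ferritin heavy chain, stood at -0.10 and was lower in 6 of 6 pairs (adjusted p = 0.285), and Fabp5, a fatty acid binding protein, at -0.10. Bgn, the small proteoglycan biglycan, stood at 0.11, and at 0.014 without both pairs numbered 2. Gpd1, glycerol-3-phosphate dehydrogenase, stood at 0.12 with 3 pairs each way, from -0.35 to 0.56, and at 0.0089 without day 6 number 1. Fasn, Pnpla2, Fabp4, Aldoa and Pgk1 averaged between 0.00 and 0.04. Pnpla2, the adipose triglyceride lipase, and Aldoa, aldolase A, were lower in the 3 day 3 pairs and higher in the 3 day 6 pairs, with interactions of 0.19 and 0.13 that were not significant over all genes (adjusted p = 1.00 for both).

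The pairs shared little of their differences across the genome. The SD of the within-pair differences over genes was 0.24 to 0.30. Across 9768 genes with a mean of at least 5 CPM, which are not independent replicates, the correlation between the difference vectors of 2 pairs ranged from -0.22 to 0.29 with a median of 0.07 and was positive for 11 of 15 combinations. It spanned -0.22 to 0.28 between pairs of the same day and -0.03 to 0.29 between pairs of different days. Day 3 and day 6 pairs of the same number correlated at 0.07, 0.29 and 0.02 for numbers 1, 2 and 3.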

How the data were processed

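RNA of 12 3T3-L1 libraries was sequenced. The authors deposited 1 table of estimated counts per gene, with no scaling to depth (3.37% of values not whole, tolerance 1e-06). Per the submitters' notes, RSEM 1.3.1, HISAT2 2.2.1 and the mm39 build were used, with no role given. Annotation and strand setting: not given in the sources used here. Overlapping, antisense and near-identical genes are therefore uncertain. Of 16414 identifiers, 16387 matched a symbol in RefSeq GRCm38.p6, 27 did not, 809 were at 0 throughout, and 0 mitochondrially encoded genes were in the table.

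Rounded counts entered a robust quasi-likelihood fit of edgeR 4.0.16 (R 4.3.3) with the pair as block, after filterByExpr and TMM scaling. Tests were two-sided, with the study's threshold of 0.01 (its own test was DESeq2). Within-pair differences used log2 CPM with a prior count of 2. limma 3.58.1 and DESeq2 1.42.0 served as alternatives. The scripts were checked on simulated data. Within a pair and within a group of the same day and mimic, no 2 libraries looked like duplicates (chi-square per degree of freedom of 3.32 or more). Other combinations were not compared.

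The numbers were taken as pairing the samples from the data, since no label says what the numbers stand for. Residuals of same-numbered libraries of a day correlated at 0.485 to 0.825 in all 6 pairs, and other numbers at -0.688 to 0.312. The residuals of a gene are taken from the mean of each group of day and mimic. High values for the same number therefore lower those for other numbers, and the ranges are not independent. The common dispersion was 0.00247 with the block and 0.0245 without it.

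Sites were searched in 3′ UTRs of at least 20 bases from GENCODE vM21, which is on GRCm38, so no genome coordinates are given for them. Named genes were all called genes, those next in p up to 20 in all, the candidate targets, the host gene, the genes the study named and up to 2 called members of each list. A few genes that these rules would name, 1 of the 20 among them, are not reported here, but stay in all counts over genes and lists. The other list members named were chosen after their values were seen. The comparison, the members and the lists were chosen with earlier results of these data known.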

Additional observations from a re-analysis of the deposited data

Results flagged for a closer look

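In 3 of 80 values tested, 1 of the 6 pairs lay far from the other 5 (gap over range above Dixon's 95% critical value for 6 values). Chance flags about 1 in 20 such values. Within-pair log2 CPM differences are miR-335-5p mimic minus NT mimic. Thbs1 differed by -0.82 in day 3 number 1, against -0.38 to -0.17 in the other pairs. Bgn differed by 0.51 in day 3 number 2, against -0.03 to 0.12. The median of the preadipocyte and fibroblast genes was 0.083 in day 3 number 1, against -0.11 to -0.044.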

How the results depend on the processing

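The count of calls over the 6 pairs depended on the processing. Against 1 call, DESeq2 with the pair block called 10 genes (8 lower, 2 higher), RLE factors 0, limma-trend 0 and no filter on low counts 44 (35 lower, 9 higher), and a threshold of 0.05 called 18. With no scaling beyond the library total and with a mean of at least 5 CPM the count stayed at 1. Without the replicate block it was 0 (edgeR, 88 genes at an unadjusted p below 0.05), and with a replicate block by number over both days 0 (379 genes). For RLE and limma-trend, 1130 and 1116 genes had an unadjusted p below 0.05. Leaving out 1 pair or 1 replicate number gave 0 to 9 calls, with 9 without day 6 number 1 and 9 without both pairs numbered 3. The 18 genes under 0.05 kept their sign under every alternative that tested them, 17 of 17 at a mean of at least 5 CPM. Each had a single sign in 6 of 6 pairs, so the kept sign is no separate support. Of the 18, all stayed under 0.05 with RLE factors, 14 in DESeq2 with the pair block and 11 in limma-trend. None did so without the replicate block or with a block by number over both days. Leaving out pairs or numbers kept 1 (without both pairs numbered 2) to 15 (without day 6 number 3). For the difference between days, 1 gene was called without the filter and 1 at a threshold of 0.05, and leaving out a pair gave 0 to 5, the most without day 6 number 1.

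Genes near 0 changed sign. Col3a1 stood at 0.0021 with no scaling and Gga3 at 0.0045 without the replicate block. Leaving out pairs or numbers gave -0.058 to 0.064 for Gna12, -0.068 to 0.070 for Gga3, -0.017 to 0.020 for Ppil2, -0.076 to 0.0025 for Far1, -0.056 to 0.019 for Sgpp1, -0.098 to 0.036 for Igf2bp2, -0.0023 to 0.17 for Mest, -4.92e-04 to 0.058 for Pnpla2, -0.026 to 0.046 for Fasn, -0.056 to 0.046 for Col1a2, -0.073 to 0.016 for Col1a1, -0.031 to 0.033 for Col3a1 and -0.033 to 0.057 for Pgk1. The cholesterol synthesis median stayed between 0.085 and 0.13. The interferon median ranged from -0.29 without both pairs numbered 3 to -0.042 at a mean of at least 5 CPM, the matrix median reached -0.0095 without day 6 number 3, and that of the MHC class I genes -0.081 without both numbered 1. The cause of these shifts was not tested. At 17690653 to 18936781 counts per library, genes under 1 CPM rest on few counts.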
